A study of Mus musculus with 6 samples.

Results

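The mRNAs of 10 glycolytic enzymes were followed from meiotic spermatocytes to round spermatids of the mouse, with the number of molecules sequenced and the poly(A) tail of each molecule as the measurements. The genes were chosen by symbol: every annotated contig, that is, every reference transcript to which reads were aligned, whose deposited gene symbol was Ldhc, Ldha, Gapdhs, Gapdh, Hk1, Aldoa, Aldoart1, Tpi1, Pgam2 or Eno1, with case ignored. All 10 symbols were found, out of 6985 symbols in the table, and they took 26 of 12114 contigs. Ldhc, Gapdhs and Aldoart1 are spermatogenic isozymes, Pgam2 is the muscle-type isozyme that sperm also use, and the other 6 genes encode enzymes found in somatic tissues. Native polyadenylated RNA was read by nanopore direct RNA sequencing from testis cells of adult male mice of the genotype C57BL/6J/B6, with no treatment or mutation in any group. Suspended testis cells were stained with Hoechst and propidium iodide (PI) and sorted by DNA content, red fluorescence and scatter into pachytene and diplotene spermatocytes (P/D spermatocytes) and round spermatids (RS). There were 3 samples of each cell type, each a pool of mRNA from 3 mice, and the P/D gate also held a large share of other cells, larger than that of the RS gate. The 3 P/D samples were barcoded into 1 library and the 3 RS samples into another, so that cell type and library cannot be told apart in any comparison given here.

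Glycolysis splits glucose into pyruvate, and lactate dehydrogenase turns pyruvate into lactate while it restores the cofactor that the pathway needs. Sperm depend on this pathway along the flagellum, and male germ cells replace several somatic enzymes by isozymes of their own, some encoded by separate genes and some by retrogenes without introns. Transcription stops as the spermatid nucleus is compacted, so that many sperm proteins are made from mRNAs stored earlier, and the length of the poly(A) tail is a known feature of such stored mRNAs.

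The deposited counts summed to between 244004 and 474688 reads per sample, and 27548 reads fell on the enzymes. Because 1 read comes from 1 molecule, levels are given as CPM (read counts scaled to library size with the TMM factors of edgeR) and were not divided by transcript length. All 10 of the markers listed for pachytene and diplotene spermatocytes were sequenced, with a summed level of 4421 to 5608 CPM in P/D samples and 3305 to 3831 CPM in RS. Of the 1184 to 1387 reads of this list in P/D samples, Ybx3 gave 517 to 731 and Tbpl1 220 to 251. Single markers went different ways: Sycp3, Piwil1 and Pou5f2 had edgeR log2 changes of -2.90, -3.89 and -5.68 in RS. Hormad1, Mybl1, Sycp1 and Ybx3 fell by less, Tbpl1 and Spag6 rose (0.27 and 2.99), and Ccna1 did not pass the test. All 10 round spermatid markers were also sequenced, at 687 to 794 CPM in P/D samples and 3580 to 3776 CPM in RS, and the 10 elongating spermatid markers, among them Prm1 and Tnp1, at 1912 to 2547 CPM and 25289 to 31032 CPM. Markers of other testis cells were at or near 0: the Sertoli cell list (4 of 8 genes sequenced) had 0 to 6 reads per sample with Sox9 and Wt1 absent, the Leydig cell list (1 of 6) had 1 to 7 reads with Star and Cyp17a1 absent, and none of 9 markers of peritubular, endothelial, macrophage and erythroid cells was sequenced. The spermatogonia list (2 of 8 genes, mostly Id4) had 33 to 48 reads in P/D samples and 4 to 6 in RS. In sorted bulk samples of this kind, fewer cells of a type and less RNA per cell cannot be told apart.

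Poly(A) tails are added after the cleavage that a poly(A) signal directs, so the last 30 bases of the main transcript (the contig with most reads) are shown for the genes whose tails the results turn on, in the sense of the mRNA, with the hexamer AATAAA or ATTAAA in capitals. They were read from GENCODE vM21 transcripts of GRCm38.
Ldhc-201 (chr7:46878113-46878142, plus strand): tATTAAAggcaaccaccaccaggcccagct
Ldha-210 (chr7:46855597-46855626, plus strand): gtgtcatgccaAATAAAaccttgaacagtg
Gapdhs-203 (chr7:30729780-30729809, minus strand): gtcaacaatgaAATAAAaacgagaatgcgc
Gapdh-206 (chr6:125161853-125161882, minus strand): gaataccatcAATAAAgttcgctgcaccca
Aldoart1-202 (chr4:72850583-72850612, minus strand): gtcaaaAATAAATAAATAAAaggagggagg
Aldoa-202 (chr7:126795236-126795265, minus strand): cccactgccAATAAAcaactatttaagggg
Pgam2-201 (chr11:5801640-5801669, minus strand): tggacggggcAATAAAgttacttccgcaca
Ldhc carried the variant ATTAAA, 29 bases before the annotated end, whereas its somatic partner Ldha carried AATAAA 19 bases before the end. The signal of Aldoart1 was a run of 3 overlapping AATAAA hexamers, and both annotated Aldoart1 transcripts end in the same 30 bases. Of 6901 transcripts with tails tested and a sequence, 63.3% held AATAAA and 17.4% held ATTAAA within the last 50 bases, on the strand of the mRNA, and 77.5% held either. Of the 26 contigs, 7 held neither hexamer in their last 50 bases: Ldhc-204, Ldhc-205, Gapdhs-201, Tpi1-204, Tpi1-205, Hk1-201 and Hk1-203.

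From P/D spermatocytes to RS the tails of 8 of the 10 enzymes lengthened, and those of none shortened, by limma on the mean tail of each sample with Benjamini-Hochberg adjustment over 5407 genes. Over all genes tested, 54.8% were longer and 2.07% shorter in RS, with a median change of 35.0 nt, against a median of 53.9 nt over the 10 enzymes. The change was largest for Gapdh, Tpi1, Ldha and Pgam2, and Gapdhs and Aldoart1 did not pass the test. In the level of the mRNA the enzymes split: 5 rose in RS (Gapdhs, Aldoart1, Hk1, Aldoa and Tpi1), 4 fell (Gapdh, Ldha, Ldhc and Pgam2), and Eno1 did not pass the test, by edgeR's quasi-likelihood test over 4967 genes. In that test 34.7% of all genes rose and 31.2% fell. Aldoart1 passed the low-count filter through its RS reads alone and Gapdh through its P/D reads alone, the cell type in which each was higher. Of the 8 enzymes that passed in both cell types, 4 rose and 3 fell. The tail means of all RS samples were above those of all P/D samples for 9 of the 10 enzymes, against 62.3% of genes with a mean in every sample, and for none below (3.11%). Levels did not overlap for 9 enzymes, 5 above and 4 below in RS, against 36.2% and 33.3% of genes.

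**Figure D1:**
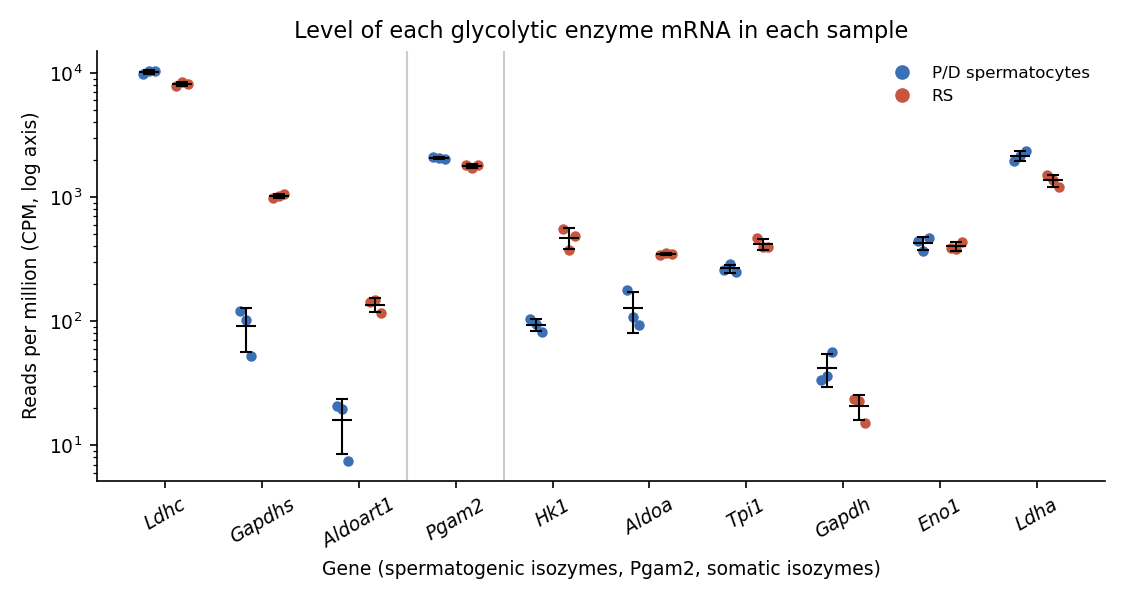
Level of each enzyme mRNA in each sample, in CPM on a log axis. Points are single samples, the short bars are means and the error bars SD (n = 3 samples of each cell type). Gapdhs and Aldoart1 sit far higher in RS, at means of 1022 and 136 CPM, than in P/D samples, at 91.6 and 16.0 CPM, while Ldhc is the most abundant in all 6 samples.

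Ldhc, the testis-specific lactate dehydrogenase subunit, was the most abundant of these mRNAs, and its level fell slightly while its tail lengthened. The main transcript, Ldhc-201, spans chr7:46861203-46878142 on the plus strand in 8 exons. Its gene had 9799, 10275 and 10428 CPM in P/D replicates 1 to 3, and 7885, 8510.45 and 8153 CPM in RS replicates 1 to 3. The cell types did not overlap, and the level in RS fell by 0.31 on the log2 scale (SE 0.07, edgeR adjusted p = 0.000105), a 1.24-fold difference. Mean tails were 106, 107 and 106 nt in P/D samples and 160.1, 158 and 163 nt in RS. The change of 54.1 nt (SE 4.59, limma adjusted p = 0.000279) was many times the spread of 0.427 nt (SD, n = 3) among P/D and 2.42 nt among RS samples. In the pooled reads, the middle tail was 91.2 nt over 8279 P/D reads and 161 nt over 8711 RS reads. Reads with tails of 30 to 120 nt made up 66.5% ± 1.28 (SD, n = 3) of Ldhc reads in P/D samples and 14.1% ± 1.39 in RS, where 76.7% ± 0.917 had tails of 120 to 210 nt.

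Gapdhs, the glyceraldehyde-3-phosphate dehydrogenase that is bound to the fibrous sheath of the sperm tail, behaved differently: its mRNA rose 11.2-fold and its mean tail was long in P/D samples as well. Gapdhs-203 spans chr7:30729780-30743681 on the minus strand in 11 exons. Its level was 121, 101 and 52.3 CPM in P/D replicates 1 to 3, from 29, 31 and 14 reads, and 986, 1025 and 1055 CPM in RS replicates 1 to 3. No P/D value reached the RS range (log2 change 3.48, SE 0.16, edgeR adjusted p = 6.36e-21). Mean tails were 171, 166 and 151 nt in P/D samples and 178, 175 and 176 nt in RS. The RS values lay above all P/D values, but the change of 13.4 nt (SE 6.68) did not pass the test (limma adjusted p = 0.137). Of its reads in P/D samples, 71.1% ± 15.1 (SD, n = 3) had tails of 120 to 210 nt, against 83.9% ± 1.37 in RS. These values overlapped between cell types (exact permutation p = 0.4). For comparison, 29.6% ± 0.943 of all annotated reads fell into that class in P/D samples and 67.4% ± 0.996 in RS.

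Aldoart1, an aldolase A retrogene with a single exon (chr4:72850583-72852632, minus strand), followed Gapdhs in direction with far fewer reads. Its level was 20.9, 19.6 and 7.47 CPM in P/D samples, from 5, 6 and 2 reads, and 142, 149 and 116 CPM in RS, from 42, 65 and 38 reads. The groups did not overlap, with a log2 change of 3.06 (SE 0.34, 8.49-fold, edgeR adjusted p = 2.16e-10). Mean tails were 169, 189 and 154 nt in P/D samples and 180.2, 179 and 179 nt in RS, which overlapped, and the change of 8.99 nt (SE 9.54) did not pass the test (limma adjusted p = 0.462). With so few P/D reads, the gene entered both the level test and the tail test only through its reads in RS, where it is the higher, so that a gene this rare in P/D samples had to differ to be tested. None of the 13 P/D reads had a tail of 30 to 120 nt, which allows a share of up to 23.1%.

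Markers of later germ cells were present in the P/D samples, and P/D replicate 3 was the lowest of the 3 for them as it was for Gapdhs and Aldoart1. The P/D level of Gapdhs was 11.9%, 9.91% and 5.11% of its RS mean in replicates 1, 2 and 3, and that of Aldoart1 was 15.4%, 14.4% and 5.50%. The summed elongating spermatid markers had 8.87%, 7.41% and 6.66% of their RS level in the same replicates, and the round spermatid markers 20.03%, 21.5% and 18.6%. The pooled reads of these markers had mean tails of 139 nt in P/D samples and 145 nt in RS (elongating list), and 130.3 and 174 nt (round list). Most round-list reads in P/D samples came from Acr (56, 60 and 61 reads) and Lrrc34 (65, 99 and 84 reads), with P/D mean tails of 111 and 109 nt. The other round-list genes had 1 to 22 reads in each P/D sample and P/D mean tails from 137 to 248 nt. The part that later germ cells have in the P/D values of Gapdhs and Aldoart1 was not tested.

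Pgam2, a phosphoglycerate mutase subunit known from muscle, fell only slightly in level and showed one of the larger tail changes. It has a single contig, Pgam2-201, with 3 exons at chr11:5801640-5803733 on the minus strand. Levels were 2099, 2059.5 and 2012 CPM in P/D samples and 1810.2, 1702 and 1807 CPM in RS. All RS samples were below all P/D samples, and the level fell by 0.22 on the log2 scale (SE 0.09, edgeR adjusted p = 0.0255), a call that was lost in DESeq2 (adjusted p = 0.102) and without RS replicate 2 (log2 change -0.18, adjusted p = 0.118). Mean tails were 92.8, 92.2 and 90.1 nt in P/D samples and 165, 161 and 169 nt in RS. The change of 73.0 nt (SE 4.87, limma adjusted p = 0.000253) exceeded that of 91.7% of all genes tested. Tails of 120 to 210 nt made up 22.0% ± 2.02 (SD, n = 3) of Pgam2 reads in P/D samples and 87.0% ± 2.16 in RS.

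**Figure D2:**
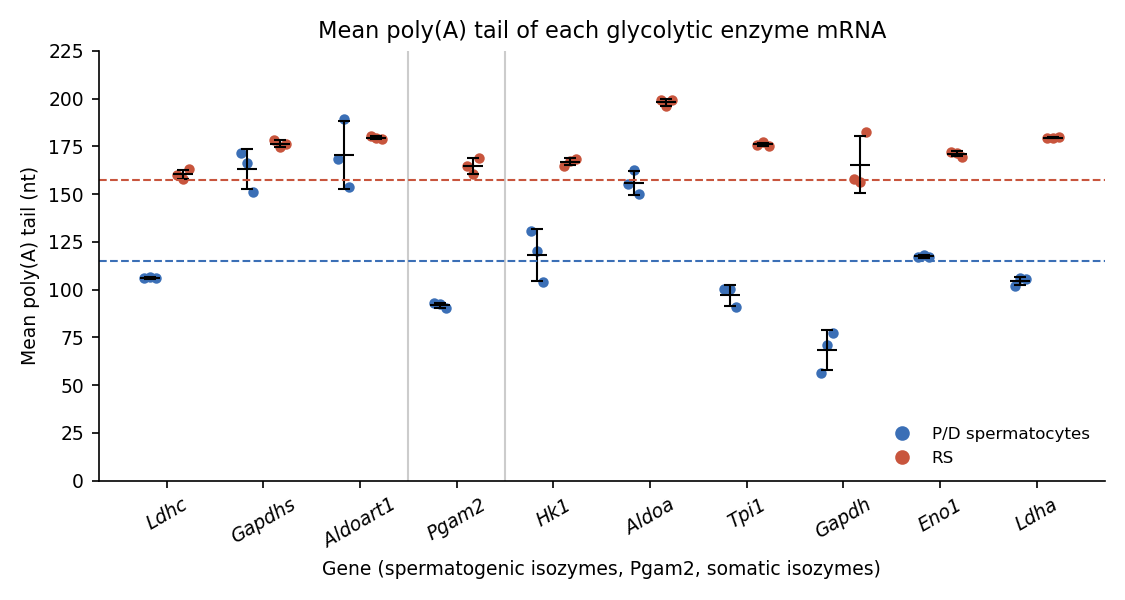
Mean poly(A) tail of each enzyme mRNA in each sample, in nt. Points are single samples, short bars means and error bars SD (n = 3 samples of each cell type), and the dashed lines are the medians over all genes tested, 115 nt (P/D, blue) and 158 nt (RS, red). Gapdhs, Aldoart1 and Aldoa lie well above the P/D median, and all 10 enzymes lie above the RS median in their means.

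The somatic enzymes are given in the order of the pathway. Hk1 encodes hexokinase 1, which phosphorylates glucose at the entry of glycolysis and has germ cell transcripts from the same locus (Hk1-202, chr10:62268855-62340542, minus strand, 18 exons). Its level was 105, 94.8 and 82.1 CPM in P/D samples, from 22 to 29 reads, and 556, 372 and 488 CPM in RS, from 160 to 164 reads. It rose by 2.31 on the log2 scale (SE 0.19, 5.03-fold, edgeR adjusted p = 6.83e-14) with no overlap. Its tails lengthened too, from 131, 120.3 and 104 nt to 165, 167 and 168 nt (change 48.6 nt, SE 7.80, limma adjusted p = 0.00242). Hk1, Aldoa and Tpi1 were called up in RS in both level and tail. Of all genes tested, 34.7% rose in level and 54.8% had longer tails, and the share that did both was not counted.

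Aldoa, the aldolase of muscle and red cells (Aldoa-202, chr7:126795236-126799141, minus strand, 10 exons), had 180, 108 and 93.3 CPM in P/D samples, from 25 to 43 reads, and 339, 356 and 350.5 CPM in RS. The level rose by 1.48 on the log2 scale (SE 0.19, 2.74-fold, edgeR adjusted p = 5.50e-09), and P/D replicate 1 stood above the other two. Mean tails were 155, 162 and 150.1 nt in P/D samples and 199, 196 and 199 nt in RS (change 42.1 nt, SE 5.37, limma adjusted p = 0.000943). Aldoa had the longest tails of the 10 enzymes in RS, and its mean there exceeded that of 98.0% of all genes tested. Its P/D reads were spread widely, with quartiles of 87.0 and 204 nt over 101 reads, whereas the quartiles of 370 RS reads were 173 and 213 nt.

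Tpi1, which encodes triosephosphate isomerase (Tpi1-205, chr6:124810586-124814296, minus strand, 7 exons), had 259, 288 and 250.2 CPM in P/D samples and 468, 392 and 396 CPM in RS. It rose by 0.64 on the log2 scale (SE 0.15, 1.58-fold, edgeR adjusted p = 0.000175). Mean tails went from 100.2, 100.1 and 90.7 nt to 176, 177 and 175 nt (change 79.0 nt, SE 5.15, limma adjusted p = 0.000253), and neither measure overlapped between cell types.

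Gapdh, the somatic partner of Gapdhs, was the rarest of the enzymes in RS and had the shortest tails in P/D spermatocytes. It was sequenced in 8, 11 and 15 reads of the P/D samples and 7, 10 and 5 reads of RS, that is, 33.5, 36.0 and 56.0 CPM and 23.7, 22.9 and 15.2 CPM. The level fell by 1.00 on the log2 scale (SE 0.38, edgeR adjusted p = 0.0192), but DESeq2 (adjusted p = 0.118) and the fits without P/D replicate 3 (log2 change -0.76, adjusted p = 0.145) or RS replicate 3 (log2 change -0.84, adjusted p = 0.0879) did not call it. Mean tails were 56.5, 71.1 and 77.1 nt in P/D samples and 158, 156 and 182 nt in RS. All RS means were above all P/D means, with a change of 97.2 nt (SE 9.63, limma adjusted p = 0.00039), which exceeded that of 99.3% of genes tested. The contig with most Gapdh reads, Gapdh-206 (chr6:125161853-125162527, minus strand), is annotated as a retained-intron transcript, and 17 Gapdh reads were also listed on Gm6981, so the counts of Gapdh are uncertain. The gene entered the level and tail tests only through its P/D reads, and without P/D replicate 2 or 3 it no longer passed the filter of the tail test.

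Eno1, the ubiquitous enolase (Eno1-202, chr4:150236952-150248879, plus strand, 12 exons), had nearly the same level in both cell types, at 439, 366 and 467 CPM in P/D samples and 386, 378 and 436 CPM in RS. These values overlapped (log2 change -0.08, SE 0.14, edgeR adjusted p = 0.619). Its tails were 117, 118 and 117 nt in P/D samples and 172, 172 and 169.5 nt in RS, a change of 53.7 nt (SE 4.50, limma adjusted p = 0.000271) with no overlap. Eno1b, an intronless copy of Eno1, was counted separately, with 1 to 5 reads in P/D samples and 27 to 31 in RS, and how the alignment divided reads between the pair is uncertain.

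Ldha, the lactate dehydrogenase subunit of muscle and most somatic cells (Ldha-210, chr7:46847082-46855626, plus strand, 8 exons), had 1940.5, 2145 and 2367 CPM in P/D samples and 1498, 1381 and 1204 CPM in RS. The groups did not overlap, and the level fell by 0.66 on the log2 scale (SE 0.09, edgeR adjusted p = 8.98e-08). Mean tails were 102, 106 and 105 nt in P/D samples and 179, 179 and 179.9 nt in RS (change 75.1 nt, SE 4.56, limma adjusted p = 0.000253). The spread among RS samples was only 0.321 nt (SD, n = 3), on 395 to 602 reads each. Of Ldha reads, 69.3% ± 1.25 had tails of 30 to 120 nt in P/D samples and 3.02% ± 1.29 in RS.

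**Figure D3:**
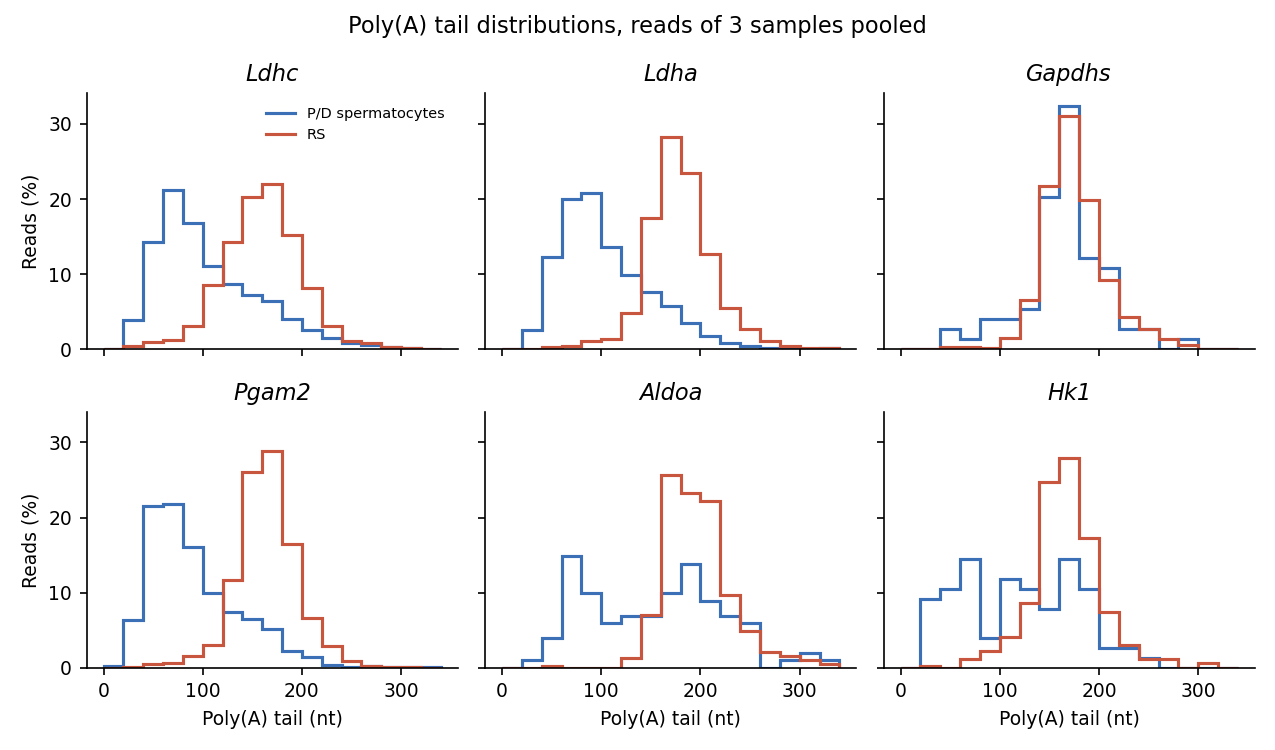
Distribution of poly(A) tails in bins of 20 nt for 6 enzymes, as the percent of reads in each bin with the reads of the 3 samples of a cell type pooled. The tallest bin of Ldhc and Pgam2 moves from 60 to 80 nt (P/D) to 160 to 180 nt (RS), whereas the tallest bin of Gapdhs is 160 to 180 nt in both.

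In order of level, Ldhc stood first in both cell types. In P/D spermatocytes it was followed by Ldha and Pgam2, whose values overlapped, then Eno1 and Tpi1, then Aldoa, Hk1, Gapdhs and Gapdh, in which each overlapped its neighbour, and last Aldoart1. In RS the order was Ldhc, Pgam2, Ldha, Gapdhs, then Hk1, Tpi1 and Eno1 with overlapping neighbours, then Aldoa, Aldoart1 and Gapdh. Gapdhs thus went from the eighth place to the fourth. By mean tail, Aldoart1, Gapdhs and Aldoa led in P/D spermatocytes with overlapping values, and Gapdh came last, whereas in RS Aldoa led alone and Hk1, Gapdh, Pgam2 and Ldhc closed the order with overlapping neighbours. The means of the 10 enzymes ranged from 68.3 to 170.5 nt in P/D samples and from 160.4 to 198 nt in RS.

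Together the 10 enzymes took 1.54% ± 0.0497 (SD, n = 3) of annotated reads in P/D samples and 1.32% ± 0.0119 in RS. The 3 spermatogenic isozymes summed to 10275 CPM ± 293 in P/D samples and 9341 CPM ± 336 in RS, nearly all of it Ldhc. Without Ldhc, the sum was 108 CPM ± 42.8 against 1158 CPM ± 25.2. The 6 somatic enzymes summed to 3103 CPM ± 188 and 3021 CPM ± 217, which overlapped, as Hk1, Aldoa and Tpi1 rose while Ldha fell.

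Spermatogenic and somatic isozymes of the same reaction were then compared within each sample, where depth cancels. The balance shifted towards the gene of the spermatogenic isozyme in RS for all 3 pairs, with no overlap between cell types. The share of all gene pairs whose ratio would not overlap was not computed. Levels of single genes did not overlap for 36.2% (RS above) and 33.3% (RS below) of genes. Reads of all Aldoa transcripts were counted as somatic, although that locus, like Hk1, also makes germ cell transcripts. The ratio of Ldhc to Ldha reads, on the log2 scale with a pseudocount of 0.5, was 2.33, 2.26 and 2.14 in P/D samples and 2.39, 2.62 and 2.76 in RS, a 1.27-fold increase. The ratio of Gapdhs to Gapdh was 1.80, 1.45 and -0.10 in P/D samples and 5.28, 5.41 and 5.98 in RS. This 22.7-fold increase rests on 5 to 15 Gapdh reads per sample. The ratio of Aldoart1 to Aldoa was -2.98, -2.37 and -3.35 in P/D samples and -1.24, -1.25 and -1.58 in RS. Its log2 increase of 1.54 became 0.77 with a pseudocount of 5 and 1.01 with the main contig of each gene alone, in which the groups overlapped (exact permutation p = 0.2). Aldoa remained the more abundant of that pair in all 6 samples. For each of the 3 pairs the two-sided exact permutation p was 0.1, the smallest that 3 samples against 3 can give, and 0.133 after adjustment over the 4 pairs measured. The fourth, Pgam2 over Pgam1, had only 1 to 6 Pgam1 reads per sample and overlapped between cell types (log2 change -0.77, exact p = 0.3).

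**Figure D4:**
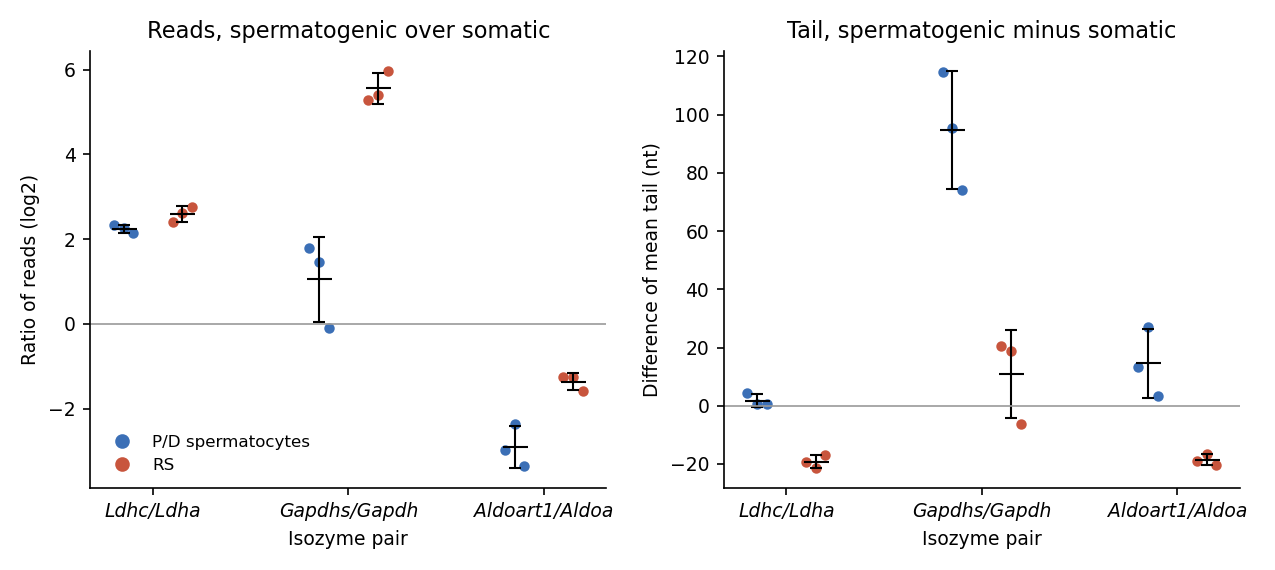
Spermatogenic against somatic isozyme within each sample, with all Aldoa transcripts counted as somatic. The left panel gives the log2 ratio of reads and the right panel the difference of mean tails in nt, as points for single samples, with means and SD (n = 3 samples of each cell type). The ratio is higher in RS for all 3 pairs, and the tail difference is lower in RS for all 3.

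The difference in mean tail between the 3 paired spermatogenic and somatic isozymes was lower in RS. The share of all gene pairs with such a change was not computed. Mean tails of single genes did not overlap for 62.3% (RS above) and 3.11% (RS below) of genes. In P/D samples the Ldhc tail was longer than that of Ldha by 4.21, 0.617 and 0.480 nt, and in RS the difference was -19.2, -21.3 and -17.01 nt, so that Ldha tails were the longer ones in RS. The tail of Gapdhs exceeded that of Gapdh by 115, 95.3 and 74.0 nt in P/D samples, whereas the difference in RS was 20.5, 18.7 and -6.40 nt. For Aldoart1 against Aldoa, again with all Aldoa transcripts counted as somatic, it went from 13.3, 26.9 and 3.46 nt to -18.9, -16.4 and -20.2 nt. The mean change was -21.0 nt ± 3.03 for the lactate dehydrogenases, -83.8 nt ± 25.3 for the glyceraldehyde-3-phosphate dehydrogenases and -33.1 nt ± 11.9 for the aldolases (error from the SD of both cell types, n = 3 each). Each had the smallest exact permutation p possible, 0.1, also after adjustment over the 4 pairs. The Gapdh tails rest on 8, 11 and 15 reads in P/D samples and 7, 10 and 5 in RS. Those of Aldoart1 rest on 5, 6 and 2 reads in P/D samples. The fourth pair, Pgam2 and Pgam1, moved the opposite way, from a mean difference of -22.8 nt ± 53.1 (SD, n = 3) in P/D samples to 71.3 nt ± 29.7 in RS (exact p = 0.1). It too had few reads, with 1 to 6 Pgam1 reads per sample. The aldolase difference overlapped between cell types when the main contig of each gene was used alone (exact p = 0.3).

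Level and tail were set side by side over the 4909 genes tested for both. Genes that rose by 2 or more on the log2 scale (866 genes, Gapdhs, Aldoart1 and Hk1 among them) had a median P/D tail of 154 nt, a median RS tail of 164 nt and a median change of 9.17 nt. Genes whose log2 change lay between -1 and 0 (1614 genes, with Ldhc, Pgam2, Ldha, Gapdh and Eno1 in that range) had medians of 105, 155 and 48.0 nt. Gapdhs and Aldoart1 were thus near their class in tail change, and Hk1, with 48.6 nt, stood above it. Across genes, the P/D tail and the log2 change had a Spearman correlation of 0.413. Genes are not independent replicates, and both measures come from the same reads of the same samples.

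**Figure D5:**
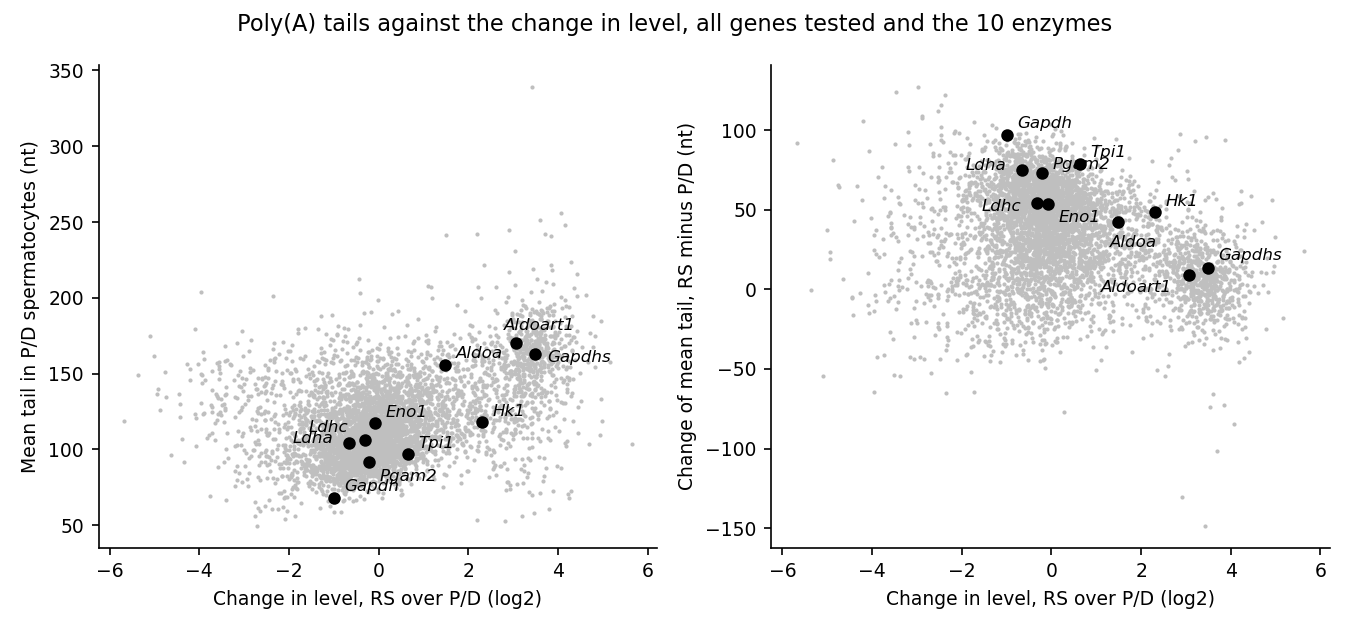
Change in level from P/D spermatocytes to RS (log2, horizontal axis) against the mean tail in P/D spermatocytes (left, nt) and the change of the mean tail (right, nt). Grey points are the 4909 genes tested for both, and black points are the 10 enzymes. Gapdhs and Aldoart1 lie with the genes at high log2 change that have long P/D tails and small tail changes, and Hk1 lies among genes of like log2 change with a larger tail change.

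Of the 26 contigs of these genes, 21 passed the filters of the transcript tests. Tails were longer in RS for 17 and shorter for none, against 54.2% and 1.69% of 6990 contigs tested. The call of Aldoa-201 (28.9 nt, SE 9.41, limma adjusted p = 0.0401) was lost with the median tail (adjusted p = 0.0918), by the equal-variance test (adjusted p = 0.0785) and without P/D replicate 1 or 3 or RS replicate 2 or 3 (22.6, 29.4, 26.9 and 24.2 nt), and that of Aldoa-202 with the median tail (adjusted p = 0.137). Levels rose for 12 contigs and fell for 5, against 32.6% and 30.8% of 6005 contigs. Among those that rose, Aldoart1-201, Aldoart1-202, Gapdhs-202, Hk1-201 and Tpi1-204 had under 10 reads in every P/D sample. They passed the filters of both tests only through their RS reads, so contigs this rare in P/D samples had to differ in level to be tested. Aldoa-201 (12, 9 and 8 P/D reads) and Aldoa-203 (9, 14 and 7) also entered the tail test only through their RS reads. The 4 Ldha contigs had like tails, with P/D means from 99.96 to 107 nt and RS means from 179 to 180.1 nt. In level they split, because Ldha-201 and Ldha-210 fell by 1.16 and 1.13 on the log2 scale (SE 0.15 and 0.14) while Ldha-202 and Ldha-214, at 0.02 and 0.22, did not pass the test. The Ldha contigs share at least 1310 bases at their 3′ ends, so a read that ends short of the 5′ end cannot tell them apart.

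For Eno1, the share of its 2 contigs did not overlap between cell types, whereas its total did. Eno1-201, with 8 exons, took 9.52%, 9.82% and 7.20% of Eno1 reads in P/D samples and 26.3%, 37.0% and 35.7% in RS, and Eno1-202 took the rest. Eno1-201 rose by 1.79 on the log2 scale (SE 0.28, edgeR adjusted p = 6.23e-07) and Eno1-202 fell by 0.59 (SE 0.16, edgeR adjusted p = 0.00102). Both lengthened their tails, by 68.6 nt (SE 5.50) and 51.1 nt (SE 5.17). For Aldoa the share of Aldoa-202 went from 51.2%, 30.3% and 40.0% in P/D samples to 62.0%, 56.8% and 53.0% in RS, while Aldoa-203 went from 20.9%, 42.4% and 28.0% to between 16.1% and 17.4%. Aldoa-203 also had the shortest P/D tail of the Aldoa contigs, 125 nt ± 17.5 (SD, n = 3), against 172 nt ± 5.52 for Aldoa-202 and 164 nt ± 12.1 for Aldoa-201, and the 3 were within 193 to 199 nt in RS. The Eno1 contigs share 1385 bases at their 3′ ends and the Aldoa contigs 1300 or more, so these shares too rest on reads that reach beyond the shared stretch. Of 21 shares tested, 9 did not overlap between cell types, each with an exact permutation p of 0.1, the smallest possible, and 0.233 after adjustment, which did not pass. They came from 4 genes, and shares of the same gene depend on each other. Over all genes with 2 or more contigs and a read in every sample, 25.7% of 5482 shares did not overlap.

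The remaining contigs add detail to single genes. Gapdhs-202, annotated for nonsense-mediated decay, had 2, 1 and 3 reads in P/D samples with a mean tail of 106 nt, against 11, 41 and 37 reads in RS with 174 nt, and entered the tail test only through its RS reads (change 67.9 nt, SE 14.9, limma adjusted p = 0.00919). Gapdhs-203, with 88.4% ± 8.52 (SD, n = 3) of Gapdhs reads in P/D samples, changed by 9.08 nt (SE 5.86, limma adjusted p = 0.236). The P/D value of Gapdhs-202 rests on 6 reads. Hk1-202, with its own annotated 3′ end and 2 AATAAA hexamers, and Hk1-203 rose by 2.08 and 2.28 on the log2 scale (SE 0.24 and 0.29), and their tails lengthened by 50.7 and 49.6 nt (SE 7.78 and 10.5). Hk1-202 took 56.6% ± 14.1 of Hk1 reads in P/D samples and 51.2% ± 2.69 in RS, which overlapped. Tpi1-204, a retained-intron transcript, rose by 1.69 (SE 0.37) against 0.42 (SE 0.16) for Tpi1-205, with tail changes of 72.4 and 79.6 nt. The rise of Tpi1-205 was not called by DESeq2 (adjusted p = 0.0519) or by edgeR without P/D replicate 1, P/D replicate 3 or RS replicate 1 (log2 changes of 0.34, 0.39 and 0.29).

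Beyond the 10 enzymes, a list of 22 other glycolytic genes had contigs for 12. Tails were longer in RS for 4 of 10 tested (Pfkm, Bpgm, Gpi1 and Pgk2) and shorter for none, with a median change of 39.3 nt, against 54.8% and 2.07% of all genes. In level, 5 of 9 rose (Aldoart2, Eno1b, Gpi1, Pgk2 and Bpgm) and none fell, against 34.7% and 31.2% of all genes, with a median log2 change of 0.74, against 0.01 over all genes tested. Eno1b, with 1 to 5 reads in P/D samples, passed the low-count filter only through its RS reads, where it was higher. Aldoart2 had 4 to 12 reads in P/D samples. Aldoart2, the other aldolase retrogene, resembled Aldoart1 in values: its level rose by 3.90 on the log2 scale, and its mean tail went from 166 to 173 nt (limma adjusted p = 0.24). Pgk2, the autosomal phosphoglycerate kinase retrogene of male germ cells, rose by 1.33 with tails of 143 and 181 nt. Pgk1 had no contig. Of 16 genes for handling pyruvate and lactate, 12 had contigs. Tails were longer in RS for 7 of 11 tested and shorter for 1, Slc2a3, which encodes a glucose transporter and whose mean tail went from 155 to 132 nt while its level fell by 2.52 on the log2 scale. These counts stand against 54.8% longer and 2.07% shorter over all genes. Slc16a7, which encodes a monocarboxylate transporter, rose by 2.12 with tails of 142 and 182 nt, and Bsg, whose product basigin escorts such transporters to the membrane, had tails longer by 72.2 nt in RS at a log2 change of level of -0.15 (adjusted p = 0.302, edgeR).

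The genes whose mean tails over the 6 samples were closest to those of an enzyme were taken among genes with at least 100 reads in every sample. For Ldhc, out of 396 genes, these were Cct7, Gm5617 and Insl6, with root mean square differences of 1.69, 2.30 and 2.46 nt. For Ldha they were Fhl4, Ypel1 and Glrx3 (2.37, 2.82 and 3.04 nt). For Gapdhs, out of 397 genes, Ccdc38, Adam3 and Tcfl5 were closest but less so (7.65, 9.56 and 14.4 nt), and for Gapdh, whose means rest on few reads, Rps6, Eif3g and Rplp1 (13.4, 13.4 and 13.5 nt). The minimum of 100 reads left out genes that, like Gapdhs, had few P/D reads. Aldoart2 was left out in this way, with mean tails of 166.4, 166.9 and 165.1 nt in P/D samples and 175.0, 171.3 and 173.0 nt in RS.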

How the data were processed

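Reads were basecalled, demultiplexed and aligned by the authors to GENCODE vM17 transcripts of GRCm38 (minimap2), and each tail was estimated with Nanopolish. The submitters' processing notes also name the build mm10. The authors deposited raw counts of reads per contig, without normalization, and a second table whose other measurement is a tail length in nt per read. Both tables gave the same number of reads for every contig and sample. Groups are the labelled cell types, and p-values measure the spread between pools of mice. Positions and transcript names came from GENCODE vM21, on the same build, in which 11344 of 11517 annotated contigs were found, all 26 used here among them. The 597 repeat contigs were left out.

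Contigs of a symbol were pooled per gene. Mean tails were tested with limma 3.58.1 in R 4.3.3 for genes that had 10 reads or more in 2 replicates of either cell type, and counts with edgeR 4.0.16 (TMM, filterByExpr, quasi-likelihood), with Benjamini-Hochberg adjustment over all genes and a threshold of 0.05. DESeq2 1.42.0 was an alternative. Percentiles are among the genes tested. Ratios, tail differences, tail classes and isoform shares were compared by two-sided exact permutation tests over samples. A count of 0 allows up to 3 counts of the total, and such limits and intervals cover counting error only. The scripts were tested on simulated data and ran in Python 3.11.15 with scipy 1.17.1.

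The enzymes, gene lists and markers were chosen with earlier results of these data known. The rule named every enzyme, its contigs that passed a filter, the 2 gene lists, the markers and the 3 genes with the closest tails of 4 enzymes. The alternatives were the replicate number as a block, the median tail, tails of 10 to 300 nt, a minimum of 50 reads, weights by reads, the methods' equal-variance test, RLE size factors, DESeq2, no filter, other pseudocounts and class bounds, the main contig alone, and leaving out each replicate. The gene fits on reads listed on a single contig were chosen after seeing the data. No 2 samples of a cell type agreed within sampling noise in their counts.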

Additional observations from a re-analysis of the deposited data

How the results depend on the processing

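Of the 10 enzymes, 8 had longer tails and 5 higher levels in RS under every alternative that tested all 10. With at least 50 reads in every sample, 5 enzymes were tested for tails and 5 were longer, and 8 contigs were tested and 8 were longer, since fewer passed that filter. Over all features under that filter, 781 of 867 genes and 705 of 773 contigs were longer. Gapdh was not tested on reads listed on a single contig. Enzymes that fell in level numbered 2 in DESeq2, which did not call Pgam2 and Gapdh, and from 3 to 4 with 1 replicate left out. Contigs with shorter tails in RS numbered from 0 to 1 with 1 replicate left out: Hk1-201, with 1 read in each P/D sample, changed by -45.7 to 55.7 nt and was called shorter without P/D replicate 2. Other values turned in sign for features with no call. With 1 replicate left out, the tail change of Aldoart1-202 ranged from -10.2 to 17.2 nt and the log2 change of Ldha-202 from -0.0932 to 0.16 (-0.029 with no filter). The change of isoform share, in percentage points, ranged from -6.28 to 2.82 for Gapdhs-202, -5.27 to 2.22 for Gapdhs-203, -9.85 to 15.9 for Gapdh-206, -11.0 to 2.49 for Hk1-202 and -7.88 to 5.05 for Hk1-203. The causes were not tested.

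The cell types came from the same mice, but which pools share mice is not stated. The replicate numbers of the cell types were not shown to pair: over 867 genes, deviations from the group means correlated by 0.03, 0.36 and 0.13 in level and 0.03, 0.10 and 0.04 in tail for the same number. For different numbers the correlations ran from -0.27 to 0.19 in level and from -0.09 to 0.05 in tail. With the replicate number as a block, 8 enzymes had longer tails, 5 higher and 4 lower levels, the contig counts were 17 and 0 for tails and 12 and 5 for levels, and no call was lost or gained. The paired changes of the log2 isozyme ratios were 0.35, 4.51 and 1.54, with an exact sign-flip p of 0.25, the smallest that 3 pairs allow. Over all genes, shorter tails in RS numbered 112 of 5407, against 26 of 867 with at least 50 reads in every sample. They numbered 72 of 5407 by the equal-variance test after adjustment and 65 of 5108 without RS replicate 2. Longer tails numbered 2965 of 5407 genes, against 781 of 867 with at least 50 reads. Over all contigs, longer tails numbered 3787 of 6990, against 705 of 773 with at least 50 reads, and shorter tails 118 of 6990 against 23 of 773. Shorter tails numbered 78 of 6738 without RS replicate 1 and 66 of 6310 without RS replicate 2. Higher levels numbered 1955 of 6005 contigs, against 3404 of 11467 with no filter. Few reads limit Aldoart1, Gapdh and the P/D values of Gapdhs.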

Other observations

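Of the 11 tested genes for handling pyruvate and lactate, 3 rose and 3 fell in level, against 34.7% and 31.2% of all genes. Pdha2, the testis-specific subunit of pyruvate dehydrogenase, fell by 0.83 on the log2 scale and Pdhb, its partner subunit, by 1.01, and their tail changes of 12.7 and 22.5 nt did not pass the test (limma adjusted p = 0.0973 and 0.0598). The other tested parts of that complex, Pdhx, Dlat and Dld, had no call in level (log2 changes of 0.10, -0.37 and -0.51), and the tails of Pdhx and Dld lengthened by 24.4 and 40.0 nt (limma adjusted p = 0.00928 and 0.00337). Mpc2, a subunit of the mitochondrial pyruvate carrier, rose by 0.46 in level and its mean tail went from 111 to 177 nt (limma adjusted p = 0.000253), whereas Mpc1, the other subunit, had no call in level (log2 change -0.38) and a tail change of 48.5 nt (limma adjusted p = 0.00349). Slc2a5, which encodes a fructose transporter, had a like pattern, with a log2 change of 0.46 and tails of 108 and 167 nt. Pfkp, a phosphofructokinase, was one of the genes with no call in either measure, with a mean tail of 137 nt before and 122 nt after the transition to RS (limma adjusted p = 0.264).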
